A study of Mus musculus with 18 samples.

Results

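Open chromatin was examined at 9 genes of senescence and cell-cycle arrest in the mouse retina. They were the cyclin-dependent kinase inhibitor genes Cdkn1a, Cdkn2a and Cdkn2b, the p53 gene Trp53 and its regulator Mdm2, the stress-induced cytokine gene Gdf15, and Lmnb1, Hmgb1 and Glb1, whose products are followed as markers of senescent cells. Chromatin accessibility was measured by ATAC-seq, in which a transposase inserts adapters into accessible DNA, and each library was deposited as 1 list of peaks. Every listed peak that overlapped a gene from 10 kb upstream of its start to its end was taken (mm10 build, GENCODE M21 annotation). These windows held 519 of the 911837 peaks of the series, which merged into 37 of the 73567 regions called in at least 2 libraries and 6 regions called in 1.

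The 18 libraries were made from whole retinas of wild-type mice and formed 6 groups of 3. Retinas of 3-month-old (3mo) and 18-month-old (18mo) mice came from eyes held at an intraocular pressure of 30 mmHg for 1 hour (IOP), from the opposite eyes of treated mice (contralateral controls), and from untreated mice. The labels date treated and contralateral retinas to day 2, while the text of the study names another day. A dasatinib injection stands in the treatment text shared by all libraries, and no label assigns a library to it. The same shared text describes chromatin immunoprecipitation, whereas the methods describe transposition of fresh nuclei, 1 retina per library. The study calls its ATAC-seq libraries biological replicates, the labels do not tie libraries to mice, and IOP and contralateral retinas may be eyes of the same mice, so the p-values measure the spread between libraries. Whole retina holds many cell types, so a change in 1 type and a change in the number of its cells cannot be told apart. Of 12 retina marker promoters, 8 were called in all 18 libraries, as were 51.8% of protein-coding genes. The other 4 were Rbpms in 14, Opn1sw in 13, Rlbp1 in 8 and Grm6 in 2. Of 12 further markers (pigment epithelium, microglia, vessels, reactive astrocytes, epidermis, muscle, liver and blood) 11 were called in none and Tmem119 in 2. Over all protein-coding genes 35.8% were called in none. These calls do not measure the share of any cell type.

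The lists held 36011 to 66160 peaks per library, and the depth estimated from them was 16.3 to 28.3 M tags (M, mega). The libraries from untreated mice stood apart. Their shortest listed peaks were 79 to 89 bp, against 114 to 157 bp in the contralateral and IOP libraries, and the median fold of the 24751 regions called in all 18 libraries was 9.86 to 11.9 in them, against 6.83 to 10.2 in the others. Fold here is the deposited ratio of summit pileup to the background around it. It is given for each library as listed, and because its general level moved with the kind of library, height was tested only after subtraction of each library's median on the log2 scale (the centred log2 fold).

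Cellular senescence is a lasting arrest of the cell cycle. The main routes to it run through p53, which activates Cdkn1a (p21), and through p16Ink4a, which keeps the retinoblastoma protein active. The locus Cdkn2a encodes both p16Ink4a and p19Arf from separate start sites, and p19Arf protects p53 from Mdm2, the ligase that marks p53 for degradation. Retinal neurons do not divide, and in them these genes are followed as signs of stress and age.

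The Cdkn2a locus (chromosome 4, 89274471 to 89294653, minus strand) was open at 1 of its 2 start sites. Its only region, chr4:89294590-89295214, lay over the p19Arf start at 89294653, in a very CpG-rich promoter. It was called in 17 of 18 libraries, with 3mo IOP replicate 2 lacking it. The listed peaks did not all overlap one another, and most did not reach the start itself. Those of 3mo untreated replicate 5, 18mo untreated replicate 4, 18mo contralateral replicate 2 and 18mo IOP replicate 2 lay upstream of its printed stretch. The p16Ink4a start at 89282192 was called in 0 of 18. The sequences of the 250 bases upstream of the RefSeq starts (GRCm38.p6, written 5′ to 3′ along the gene, CpG dinucleotides in capitals) are shown because they differ in CpG number as their calls did. The last 34 bases before the RefSeq p19Arf start lie in its GENCODE first exon and are left out of the print.
Cdkn2a p19Arf start, chr4:89294654-89294869, minus strand: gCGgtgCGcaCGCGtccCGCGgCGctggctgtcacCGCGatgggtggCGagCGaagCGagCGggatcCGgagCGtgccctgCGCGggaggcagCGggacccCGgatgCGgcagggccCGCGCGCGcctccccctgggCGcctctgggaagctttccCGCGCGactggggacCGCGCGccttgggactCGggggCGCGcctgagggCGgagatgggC
Cdkn2a p16Ink4a start, chr4:89282193-89282442, minus strand: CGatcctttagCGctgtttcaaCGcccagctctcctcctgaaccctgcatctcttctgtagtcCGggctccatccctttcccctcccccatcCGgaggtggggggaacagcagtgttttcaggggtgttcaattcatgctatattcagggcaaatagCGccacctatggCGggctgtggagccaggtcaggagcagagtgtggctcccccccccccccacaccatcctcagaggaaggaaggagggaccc
Over its full 250 bases the p19Arf stretch held 40 CpG, more than 98.7% of the 32851 RefSeq promoters, and the p16Ink4a stretch 7, close to the median of 6. A GC box (GGGCGG on either strand) was found in the p19Arf stretch only; 32.7% of all RefSeq promoters held one in the same 250 bases.

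The p19Arf peak was low. Its fold was 4.04, 4.40 and 5.12 in 3mo untreated, 4.77, 6.31 and 5.08 in 3mo contralateral and 5.00 and 4.10 in the 2 calling 3mo IOP libraries. In the 18mo libraries it was 3.76, 7.39 and 4.63 untreated, 4.94, 6.12 and 4.63 contralateral and 5.03, 5.38 and 4.93 after IOP. These ranges overlapped in every pair of groups. Ranked by −log10 q within each list, the peak stood at a median of 79.5% from the top, and its summit moved over 360 bp between libraries. A peak of this height lies near the calling threshold, so the missing call in 3mo IOP replicate 2 does not show closed chromatin there.

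Cdkn2b, the neighbouring gene for p15Ink4b, another inhibitor of the cyclin D kinases, had 1 region (chr4:89310453-89311195) in all 18 libraries. In 16 libraries a summit lay 337 to 439 bp inside the gene, and 6 libraries had one at the start itself (−16 to 106 bp). The listed peak of 1 library, an 18mo untreated one, lay wholly inside the gene and did not reach the promoter window. Where a library listed several peaks, the one with the highest −log10 q gave the fold. The summit used lay at the start in 3mo untreated replicates 4 and 6 and 3mo contralateral replicate 3, and inside the gene in the rest. The fold was 6.36, 7.14 and 9.11 in 3mo untreated, 6.75, 13 and 7.43 in 3mo contralateral and 9.28, 6.71 and 8.58 in 3mo IOP libraries. At 18 months it was 4.83, 6.86 and 7.20 in untreated, 14.01, 6.89 and 10.5 in contralateral and 8.38, 9.60 and 5.99 in IOP libraries. The 3 highest values belonged to contralateral libraries with shortest peaks of 114 to 116 bp, and groups overlapped throughout.

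Cdkn1a (chromosome 17, 29090976 to 29100727, plus strand) encodes p21, the kinase inhibitor that p53 induces after damage. It was open around its inner start sites at 29093769 and 29093781, called in 18 of 18 libraries, while the outer start at 29090979 and a further start at 29097900 were called in 0. The region chr17:29093530-29095911 spanned 2382 bp and held separate summits; a gene model without assigned function, AC167363.2, also starts within it. The first, near the inner starts, lay 2706 to 2792 bp from the gene start in 17 libraries. The second lay inside the gene at 4612 to 4769 bp in all 18. The stretches before the 2 starts are shown for the same contrast as at Cdkn2a, with CpG in capitals.
Cdkn1a outer start, chr17:29090729-29090978, plus strand: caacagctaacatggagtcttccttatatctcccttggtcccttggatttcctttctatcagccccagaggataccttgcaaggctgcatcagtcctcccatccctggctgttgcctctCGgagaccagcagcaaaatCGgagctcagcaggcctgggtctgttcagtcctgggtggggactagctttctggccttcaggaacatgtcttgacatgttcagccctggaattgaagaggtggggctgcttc
Cdkn1a inner start, chr17:29093519-29093768, plus strand: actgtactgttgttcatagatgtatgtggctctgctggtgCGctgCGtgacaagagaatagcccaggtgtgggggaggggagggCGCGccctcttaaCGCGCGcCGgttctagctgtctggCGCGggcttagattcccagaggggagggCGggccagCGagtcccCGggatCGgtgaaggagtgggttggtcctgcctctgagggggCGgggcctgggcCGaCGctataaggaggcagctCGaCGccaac
The outer stretch, with 2 CpG, exceeded 18.8% of RefSeq promoters, and the inner one, with 19, exceeded 80.3%. The outer stretch also holds a match to the p53 response element (2 adjacent half-sites with no spacer, at most 1 mismatch outside the core bases), here in capitals with 20 bases on either side.
Cdkn1a p53 element match, chr17:29090908-29090967, plus strand: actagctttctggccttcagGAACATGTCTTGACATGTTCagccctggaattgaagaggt
The match started 48 bp before the gene start and 2583 bp from the called region, and no library listed a peak over it. Of all consensus regions, 0.0816% held such a match. In the 9 windows there were 6 matches (2 in Mdm2, 1 each in Cdkn1a, Cdkn2b, Gdf15 and Glb1), and none lay within a called region. A match is a description of sequence and not a binding site.

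The first Cdkn1a summit differed with the kind of library. Its fold was 8.50, 8.76 and 9.99 in 3mo untreated and 9.89, 9.03 and 8.21 in 18mo untreated libraries. In contralateral libraries it was 4.93, 5.55 and 6.28 at 3 months and 6.70, 5.02 and 6.49 at 18 months. After IOP it was 5.56 and 4.52 at 3 months, where replicate 3 listed no separate summit, and 6.47, 4.80 and 4.77 at 18 months. All 6 untreated values were above all 11 others. The median fold over all regions was also higher in most untreated libraries (given above), and the part of that in this difference was not tested. The centred log2 fold of the region was taken at the peak with the highest −log10 q in each library. That peak was the second summit in every contralateral and IOP library and the first in most untreated ones. The group means therefore set different summits side by side and say nothing on the first alone. They were −0.27, −0.24 and −0.25 in 3mo untreated, contralateral and IOP libraries and −0.29, −0.39 and −0.32 in the 18mo groups. A weaker summit between the others was listed in 7 contralateral or IOP libraries (fold 2.64 to 3.61) and in 0 untreated ones. The centred log2 fold of the region differed by −0.09 between 18mo and 3mo controls (95% interval −0.28 to 0.10; limma adjusted p = 0.684). The interval of the IOP difference was −0.27 to 0.27 at 3 months, centred on 0, and at 18 months the difference was 0.07 (−0.20 to 0.34; limma adjusted p = 0.795).

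**Figure D1:**
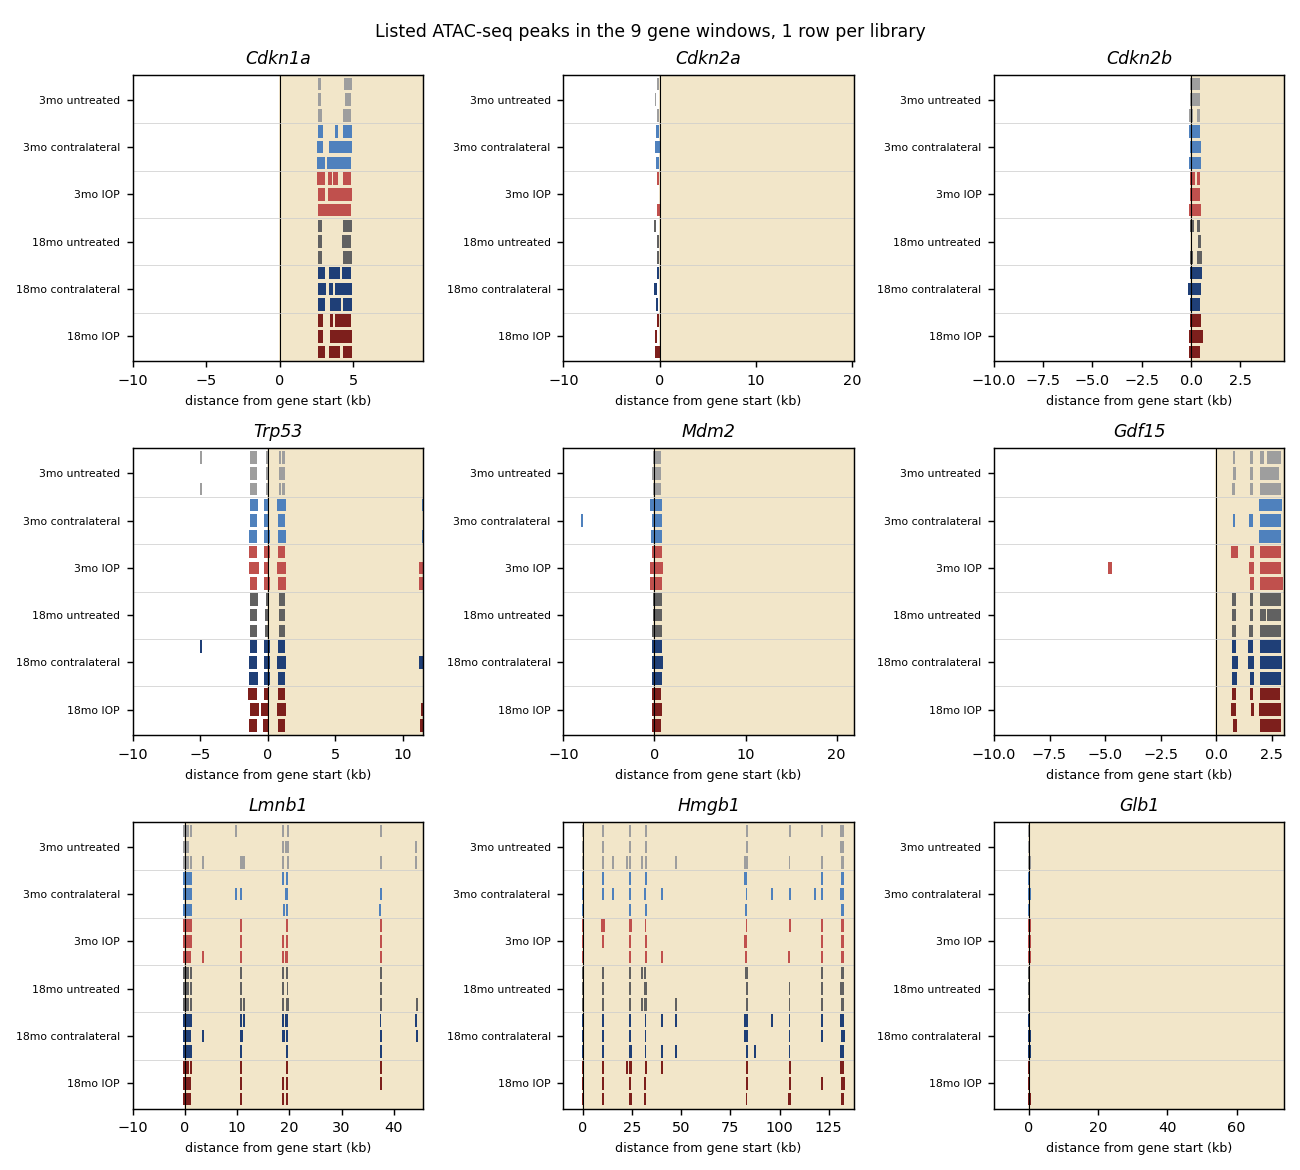
Position of every listed peak in the window of each gene, as distance from the gene start in kb (positive into the gene, tan background), with 1 row per library and 3 rows per group; bars under 1/150 of the window are drawn at that width. Cdkn2a has peaks at its p19Arf start and none further in, Cdkn1a has them from about 2.5 to 5 kb, Gdf15 has none at its start, and Lmnb1 and Hmgb1 hold scattered peaks that some libraries lack.

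Trp53 (chromosome 11, 69580359 to 69591873, plus strand), the transcription factor gene at the centre of the pathway, had 5 regions, 4 of them in all 18 libraries. Its promoter region chr11:69579851-69580540 is shared with the divergent gene Wrap53, and chr11:69578922-69579687 lies at another Wrap53 start. The region chr11:69581052-69581711 is in the first part of the gene, in an intron. The promoter fold was 8.25, 7.83 and 8.80 in 3mo untreated, 4.44, 7.03 and 5.08 in 3mo contralateral and 7.02, 4.84 and 4.67 in 3mo IOP libraries. In 18mo libraries it was 8.06, 8.01 and 7.46 untreated, 6.82, 4.92 and 6.44 contralateral and 6.44, 4.72 and 5.09 after IOP. The 6 untreated libraries were above the other 12 in this uncentred fold, and IOP and contralateral values overlapped at both ages. Centred, the means in the same order were −0.40, −0.58 and −0.53 at 3 months and −0.50, −0.64 and −0.58 at 18 months. At chr11:69591549-69592758, across the 3′ end of the gene, stood the highest peak of the 4, with a median fold of 11.97, in the top 4.76% of peaks at the median. In 7 libraries the listed peak reached back over the gene end, and in the other 11 it lay wholly beyond it, outside the window. Those 7 were the libraries with shortest peaks of 148 to 157 bp, so the number of peaks counted to Trp53 moved with peak width. The fifth region, chr11:69575367-69575483 in an intron of Wrap53, was called in 3 libraries.

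Mdm2 (chromosome 10, minus strand) had 1 region in all 18 libraries, chr10:117709775-117711273, over its start at 117710758, and 1 upstream peak (chr10:117718624-117718784) in 3mo contralateral replicate 2 alone. The CpG-rich stretch before its start is given as the example of a steadily open promoter of the set, with CpG in capitals.
Mdm2 start, chr10:117710759-117711008, minus strand: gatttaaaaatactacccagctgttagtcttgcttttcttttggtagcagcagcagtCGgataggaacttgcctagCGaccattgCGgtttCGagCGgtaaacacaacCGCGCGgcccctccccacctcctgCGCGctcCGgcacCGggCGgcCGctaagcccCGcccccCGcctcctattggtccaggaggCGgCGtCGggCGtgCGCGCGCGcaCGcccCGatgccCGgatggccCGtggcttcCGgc
It held 29 CpG, more than 93.2% of RefSeq promoters. The fold was 12.99, 12.7 and 12.9 in 3mo untreated, 8.44, 9.48 and 8.58 in 3mo contralateral and 8.75, 8.95 and 9.95 in 3mo IOP libraries. At 18 months it was 11.54, 12.03 and 11.7 in untreated, 10.9, 9.55 and 10.6 in contralateral and 10.4, 9.26 and 8.59 in IOP libraries. Untreated libraries had the highest uncentred values at both ages, and contralateral and IOP values overlapped. For the centred log2 fold the untreated mean was highest at 3 months only, and narrowly. The means were 0.24, 0.12 and 0.23 in 3mo and 0.09, 0.14 and 0.23 in 18mo untreated, contralateral and IOP libraries. The centred IOP difference was 0.11 at 3 months (95% interval −0.12 to 0.34) and 0.09 at 18 months (−0.14 to 0.32), with limma adjusted p of 1.00 and 0.695.

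Gdf15 (chromosome 8, minus strand) encodes a secreted TGF-beta relative that rises in stressed and ageing tissue. It was the only one of the 9 genes with no promoter call. From 1 kb before its starts at 70632456 and 70632095 to 100 bp after them, 0 of 18 libraries listed a peak. Its first RefSeq stretch is shown beside the open promoters, with CpG in capitals.
Gdf15 first start, chr8:70632457-70632706, minus strand: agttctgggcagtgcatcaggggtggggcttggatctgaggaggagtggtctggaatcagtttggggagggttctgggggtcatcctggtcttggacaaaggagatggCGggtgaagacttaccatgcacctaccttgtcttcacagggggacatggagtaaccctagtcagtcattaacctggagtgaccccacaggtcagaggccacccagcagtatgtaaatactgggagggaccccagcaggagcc
It held 1 CpG, and 7.87% of RefSeq promoters held fewer. The gene was nevertheless among the most densely covered, with a median of 3 peaks in a window of 13.1 kb, or 0.23 peaks per kb, above 98.5% of protein-coding genes. All lay inside the gene: region 1 (chr8:70631495-70631806, in an untranslated or noncoding exon), region 2 (chr8:70630741-70631044, in an intron) and region 3 (chr8:70629455-70630534, over a coding exon and the 3′ end). Region 3 was called in all 18 libraries, with a fold of 6.60 to 9.43. The median summits of regions 1 and 3 lay 442 and 2222 bp inside the start at 70632095. The missing promoter call therefore holds for the narrow window only. With promoters of 2.5 kb on either side of a start, 8 of the 9 genes were called in all libraries, in place of 6. A further peak stood upstream of Gdf15 in 3mo IOP replicate 2 alone.

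Regions 1 and 2 of Gdf15 were called in some libraries only, and were chosen for description after their values were seen. Region 1 was called in 3 of 3 untreated, 1 of 3 contralateral and 1 of 3 IOP libraries at 3 months, and in 3 of 3 of each at 18 months. Its fold was 3.86, 2.90 and 4.16 in 3mo untreated, 2.45 in 3mo contralateral replicate 2 and 2.57 in 3mo IOP replicate 1. The last 2 libraries had the longest lists of their groups (66160 and 51818 peaks). At 18 months the fold was 5.78, 5.37 and 5.77 untreated, 3.19, 2.52 and 3.72 contralateral and 3.64, 2.73 and 2.46 after IOP. Region 2 was called in 3, 1 and 3 libraries of 3 at 3 months and in 3, 3 and 2 at 18 months, in the same order of groups. The 18mo untreated values of region 1 were all above the 3mo untreated ones, without centring or a test. Over all controls the calls were 6 of 6 against 4 of 6 (p = 0.455 for both regions, Fisher's exact test, two-sided). That is the smallest p this total of calls among the controls allows. Neither region could pass, so the test says nothing on age here. At a median rank of 70.3% from the top of a list, region 1 was among the lower peaks.

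Lmnb1 (chromosome 18, plus strand) encodes lamin B1, a protein of the nuclear lamina that falls in senescent cells. It had 9 regions, of which the promoter (chr18:56707346-56709252) and an intron region (chr18:56727027-56727589) were called in all 18 libraries. The uncentred promoter fold was 9.06 to 10.5 in untreated and 6.54 to 8.29 in other libraries, the group means of the centred log2 fold were −0.34 to −0.12, and 8 libraries listed a second, low summit about 1.2 kb inside the gene. Of the others, region 4 (chr18:56718309-56718840, in an intron 10762 bp from the start) came closest to a difference with age and was chosen for that after its values were seen. It was called in 1 of 3 untreated and 1 of 3 contralateral libraries at 3 months and in 3 of 3 of each at 18 months (p = 0.0606, Fisher's exact test, two-sided), and also in 3 of 3 IOP libraries at both ages. Its fold was 4.61 and 5.08 in the calling 3mo controls (untreated replicate 6 and contralateral replicate 2, the longest lists of their groups) and 4.75, 3.39 and 3.42 in 3mo IOP libraries. At 18 months it was 4.97, 5.06 and 6.37 untreated, 5.62, 3.94 and 6.24 contralateral and 6.93, 3.93 and 3.51 after IOP. Without 3mo untreated replicate 6, or without 3mo contralateral replicate 2, the p-value of Fisher's exact test was 0.0152 (adjusted 0.300 and 0.308). With all libraries, 0.0606 is the smallest p that 8 calls among 12 controls allow, so this region could not pass there.

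Hmgb1 (chromosome 5, minus strand) encodes a chromatin protein that leaves the nucleus of senescent cells and acts outside as an alarm signal. Its annotated span of 137788 bp rests on 1 long transcript that starts next to Uspl1, while the main starts lie between 149051300 and 149053040. Of its 15 regions, 5 were called in all 18 libraries, and region 15 (chr5:149051365-149053424) covered the main promoter. Region 1 (chr5:149183815-149185103) was the start of the long transcript and also the promoter of Uspl1 and of the noncoding gene Mm2pr. Regions 2 to 9 lay over Mm2pr and the noncoding gene Gm42788, and regions 10 to 14 in the gap between these and the main starts, so most of the peaks counted to Hmgb1 can also be assigned to its neighbours. Glb1 (chromosome 9, plus strand), the gene of the lysosomal beta-galactosidase behind the senescence stain, had 1 region, chr9:114400815-114401774, over its start and that of Tmppe, called in all 18 libraries. Its fold was 9.74, 7.69 and 11.6 in 3mo untreated, 8.02, 14.1 and 9.83 in 3mo contralateral and 8.56, 8.11 and 8.62 in 3mo IOP libraries. The 18mo values were 9.35, 8.45 and 10.8 untreated, 11.5, 9.90 and 10.1 contralateral and 10.5, 8.75 and 6.34 after IOP, so here untreated libraries did not stand above the others in uncentred fold.

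The first comparison was the number of peaks in the 9 windows. It was 31.7 ± 8.02 in 3mo untreated, 25.0 ± 5.29 in 3mo contralateral and 26.7 ± 2.89 in 3mo IOP libraries, and at 18 months 31.0 ± 2.65 untreated, 31.7 ± 2.89 contralateral and 27.0 ± 1.73 after IOP (SD, n = 3 each). The single values, in the same order of groups, were 31, 24 and 40, then 23, 31 and 21, then 30, 25 and 25, then 30, 29 and 34, then 35, 30 and 30, and last 29, 26 and 26. Of the comparisons made, only 18mo IOP against 18mo contralateral libraries showed no overlap. Those libraries also differed in list length, with means of 44474 and 56406 peaks. Per 10000 listed peaks the means were 6.17 ± 0.96 after IOP against 5.62 ± 0.34 in contralateral libraries, and the groups overlapped. The single values were 5.96, 5.34 and 7.22 after IOP against 5.76, 5.86 and 5.24. The highest, 7.22, belonged to 18mo IOP replicate 3, the shortest list of the series (36011 peaks). The mean values per 10000 in the remaining groups were 5.20 to 5.88.

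**Figure D2:**
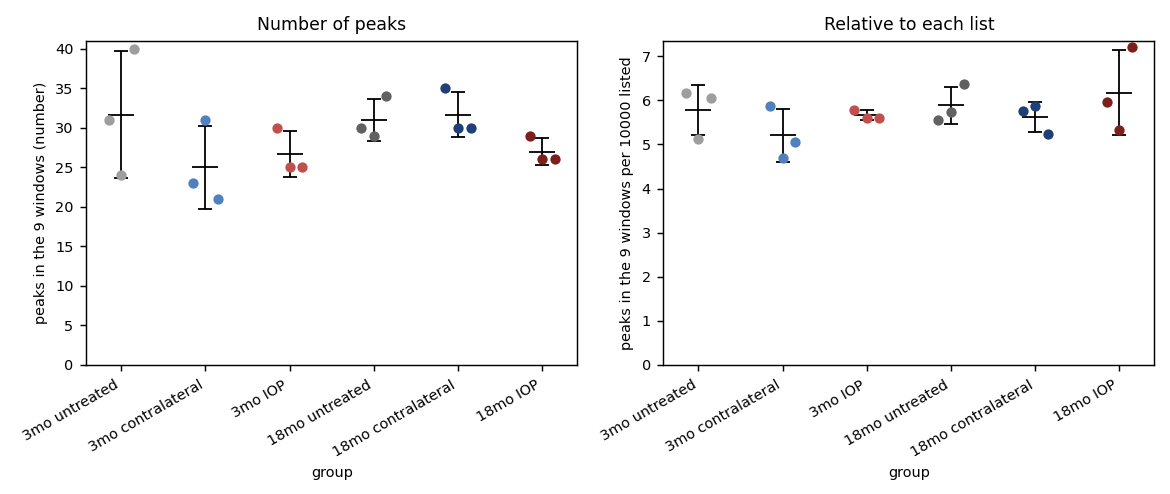
Number of peaks in the 9 windows (left) and the same per 10000 listed peaks (right) by group; points are libraries, the black marks the mean and SD (n = 3). The 18mo IOP libraries hold 26 to 29 peaks against 30 to 35 in 18mo contralateral ones, and this order is absent on the right.

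By gene, 0 of 9 passed a test of peak number. For age, the 6 controls of 18 months were set against the 6 of 3 months by an exact permutation test (two-sided), and 1.74% of 17022 genes had p under 0.05, with 0 after adjustment. The lowest p among the 9 was 0.275, for Trp53 (3.33 ± 0.52 peaks at 18 months and 4.00 ± 0.89 at 3 months, SD, n = 6, exact permutation test). Hmgb1 had the largest difference, 11.5 ± 1.87 against 9.50 ± 3.51 peaks (p = 0.286, exact permutation test). For IOP against contralateral libraries, with labels permuted within each age (400 arrangements), 1.17% of 16953 genes had p under 0.05 and 0 after adjustment. Hmgb1 again differed most, 9 against 10.3 peaks (p = 0.470, exact permutation test), and Gdf15 had 2.67 against 2.33 (p = 0.700, exact permutation test).

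The second comparison was the calling of single regions. Of the 37 regions, 16 (43.2%) were called in all 18 libraries, against 33.6% of all 73567; 9 were called in 13 to 17 libraries and 12 in 2 to 5, and 11 of those 12 belonged to Hmgb1 and Lmnb1. Their median fold was 5.56 to 11.97, 3.39 to 5.38 and 2.14 to 4.76 in these 3 classes. For age, 12 regions were called more often in 18mo and 4 more often in 3mo controls (32.4% and 10.8%, against 30.0% and 18.0% of all regions), and 0 had p under 0.05 (Fisher's exact test, two-sided), where 0.428% of all regions passed as more often called at 18 months and 0.0517% at 3 months. No region of the series passed after adjustment (0 of 9868 that could), and 1 of the 37 could have had a p under 0.05, so the 0 for age says little about the members. Within untreated controls, 0 of 37 separated all 3 libraries of one age from the other, as 0.892% (18 months) and 0.776% (3 months) of all regions did, and within contralateral controls 0 of 37 did, against 1.14% and 0.122%. For IOP, 0 of the 37 separated all 3 IOP from all 3 contralateral libraries in either direction, at either age. The shares over all regions were 0.217% gained and 0.241% lost at 3 months and 0.239% gained and 2.23% lost at 18 months. With 3 libraries against 3 the smallest possible p is 0.1, so these are counts without a test. At 3 months 6 regions were called more often and 4 less often after IOP (16.2% and 10.8%, against 15.3% and 19.8% of all regions), and at 18 months 1 more and 11 less often (2.7% and 29.7%, against 7.15% and 35.8% of all regions). Over both ages together, 0 of 37 passed an exact conditional test stratified by age at p under 0.05 (0.122% of all regions more often and 0.26% less often after IOP, with 0 adjusted). Only 1 of the 37 was called in a number of libraries that allows such a p, so this 0 says little about the members.

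**Figure D3:**
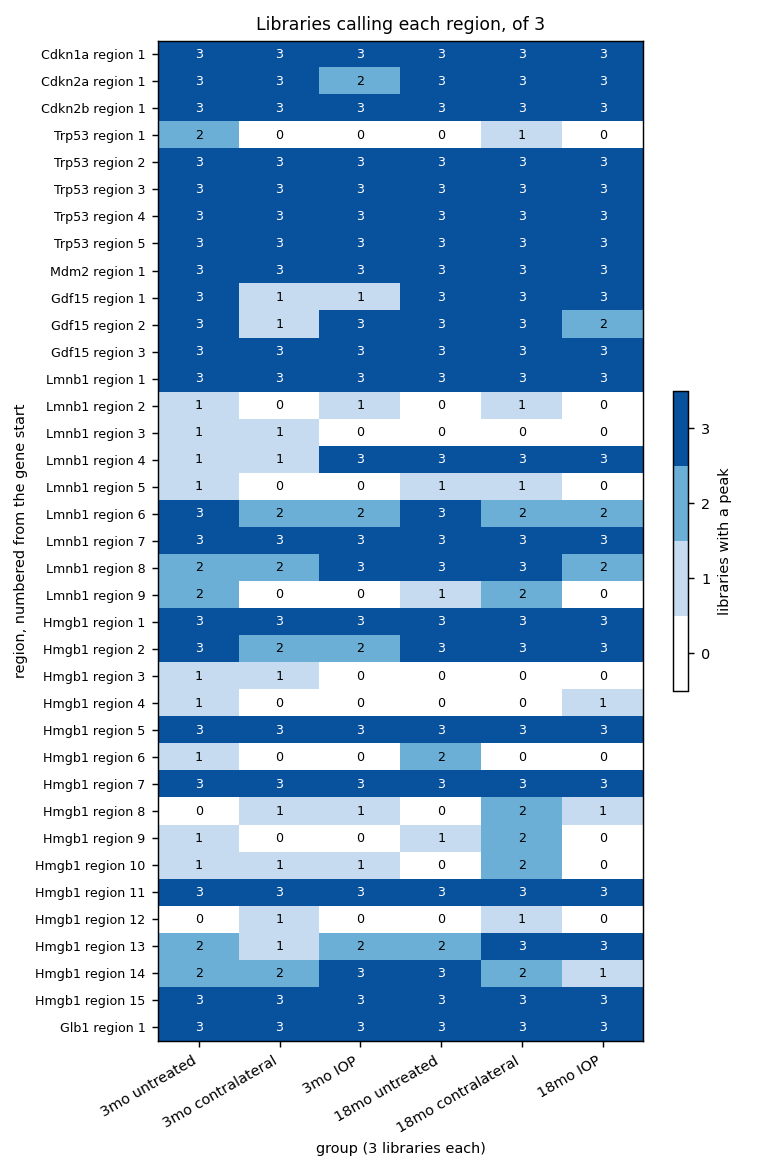
Number of the 3 libraries in each group (columns) that listed a peak in each of the 37 regions (rows, numbered from the gene start), from 0 (white) to 3 (dark). The 16 rows of 3 throughout are called in all 18 libraries, and Gdf15 regions 1 and 2 and Lmnb1 region 4 are lower in 3mo contralateral libraries than in 18mo ones.

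The third comparison was peak height at the 16 regions called in every library, as the difference of the centred log2 fold with limma over all 24751 such regions. None passed the adjusted threshold of 0.05 for age, for IOP at 3 months, for IOP at 18 months, or for the difference between the IOP effects. Over all regions, 0.214% were higher and 0.097% lower with age, 0.00404% and 0% after IOP at 3 months, 0.0404% and 0.0606% after IOP at 18 months, and 0% either way for the difference between ages. Without adjustment, 2 of 16 had p under 0.05 for age (12.6% of all regions), 0 for IOP at 3 months (3.47%), 2 for IOP at 18 months (13.4%) and 0 for the difference (4.4%). All 4 were Hmgb1 regions. The median difference over the 16 was −0.07 for age, −0.01 and 0.10 for IOP at 3 and 18 months, and over all regions −0.04, 0.00 and 0.05. The regions over the promoters of Cdkn1a, Cdkn2b, Trp53, Mdm2, Lmnb1 and Glb1 differed by −0.15 to −0.07 with age, and every 95% interval crossed 0. Over all regions 38.7% were higher with age, and the 5% quantile of the difference was −0.21. The values of Cdkn1a and Cdkn2b set different summits side by side. At Glb1 the IOP difference was −0.25 at 3 months (95% interval −0.51 to 0.02; limma adjusted p = 1.00), and at the Lmnb1 promoter 0.22 at 18 months (−0.03 to 0.47; adjusted p = 0.406). The Lmnb1 value was 0.15 without 18mo contralateral replicate 1, and the Glb1 value ran from −0.34 to −0.16 with 1 library left out.

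**Figure D4:**
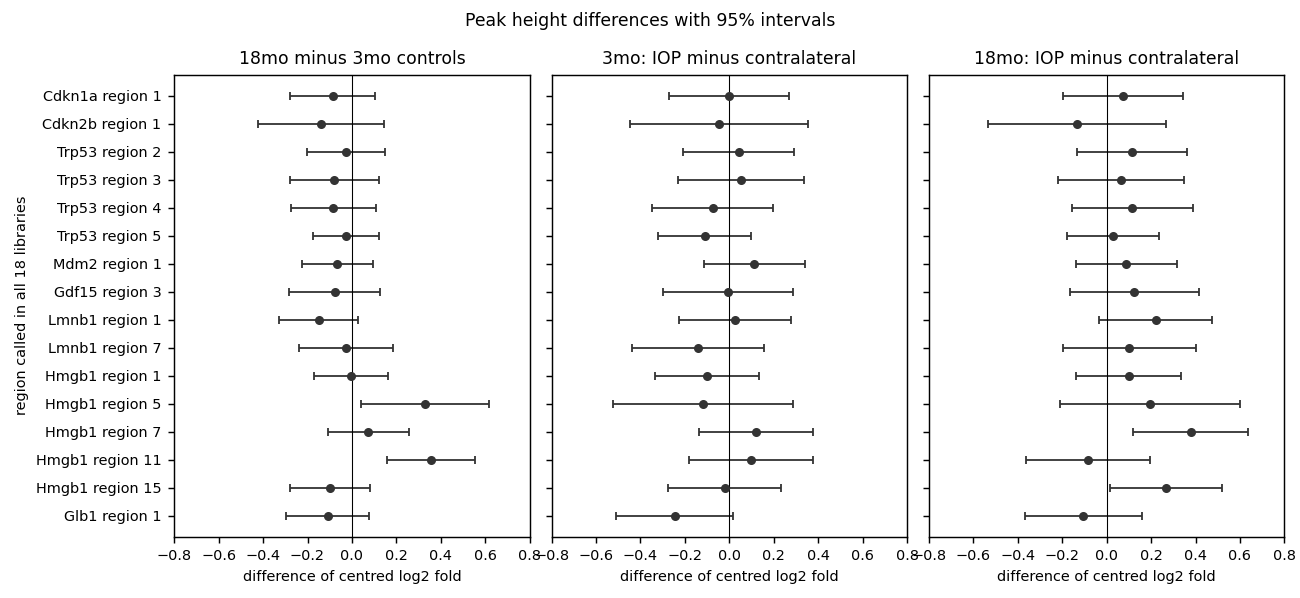
Difference of the centred log2 fold (points) with its 95% interval (bars) for the 16 regions called in all 18 libraries, for age and for IOP at each age. Intervals of Hmgb1 regions 5 and 11 for age and of Hmgb1 regions 7 and 15 for IOP at 18 months do not cross 0 before adjustment.

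Hmgb1 region 11 (chr5:149101051-149101499, about 48 kb upstream of the main starts) was 0.36 ± 0.10 (SE) higher in 18mo than in 3mo controls (limma adjusted p = 0.115), and like region 5 it was chosen after its values were seen. The uncentred fold was 8.17, 6.71 and 10.4 in 3mo untreated against 9.79, 9.66 and 12.5 in 18mo untreated libraries, and 4.12, 6.84 and 5.37 against 8.78, 6.68 and 8.75 in contralateral ones. The difference was 0.33 within untreated and 0.38 within contralateral controls. At region 5 (chr5:149159981-149160985) it was 0.33 ± 0.14 over all controls (adjusted p = 0.344), 0.60 within untreated and 0.06 within contralateral ones. The main promoter, region 15, differed by 0.27 ± 0.12 after IOP at 18 months (limma adjusted p = 0.364) and by −0.02 at 3 months.

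Hmgb1 region 7 (chr5:149152188-149153136) was the only one of the 16 whose height passed by one measure and not by another, and it is described further for that reason, chosen after its values were seen. It lies over the second exon of Gm42788 and inside Mm2pr, at −99573 bp from the nearest main start of Hmgb1. The bases around its median summit are printed on the plus strand, with the 11 central ones in capitals.
Hmgb1 region 7, chr5:149152513-149152713, plus strand: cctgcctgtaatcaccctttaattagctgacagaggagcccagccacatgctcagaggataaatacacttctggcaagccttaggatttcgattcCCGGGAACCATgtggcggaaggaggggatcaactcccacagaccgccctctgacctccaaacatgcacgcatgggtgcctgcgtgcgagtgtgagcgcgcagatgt
Neither TGANTCA nor TTCNNNGAA, letters bound by AP-1 and STAT factors, occurs in these 201 bases on either strand; 6.62% and 4.42% of consensus regions held them in the same width. TTC and GAA with 4 bases between them, the spacing STAT6 is known to bind, do occur, partly in the capitals, and 3.63% of regions held them. Repeat-masked bases were 2.32% of the region.

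By deposited fold, region 7 differed after IOP by 0.12 at 3 months and 0.38 ± 0.12 (SE) at 18 months (limma adjusted p = 1.00 and 0.279). The 3-month value was 0.02 without 3mo contralateral replicate 3 and 0.21 without 3mo contralateral replicate 2. The pileup at the summit, solved from the deposited fold and p-value of each peak, gave another picture. It was 31, 35 and 37 in 3mo untreated, 40, 61 and 35 in 3mo contralateral and 71, 70 and 71 in 3mo IOP libraries. At 18 months it was 35, 44 and 48 in untreated, 54, 48 and 52 in contralateral and 72, 96 and 69 in IOP libraries. All 6 IOP values were above all 12 controls. The same held per 10 M estimated tags, with 25.1 to 47.4 after IOP and 18.3 to 24.6 in controls, and for the rank in each list, with 5511 to 10911.5 after IOP and 12055 to 16759 in controls. Of the 24751 regions, 0.295% separated the 6 IOP from the 12 control libraries in this way by rank and 0.121% by pileup per tag. With log2 pileup, centred in the same way, in place of fold in the same model, the differences were 0.63 at 3 months (limma adjusted p = 0.00402) and 0.82 at 18 months (limma adjusted p = 4.82e-05), where 0.404% and 1.21% of regions passed as higher and 0.0364% and 0.505% as lower. They did not pass a test of the difference between ages (0.19, limma adjusted p = 0.868). By rank, the difference was 0.46 at 3 months (limma adjusted p = 0.975) and 0.91 at 18 months (limma adjusted p = 0.00925), where 0.109% and 0.376% of regions passed as higher and 0% and 0.149% as lower.

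The local background of region 7 was also higher after IOP. Per 10 M tags it was 4.02 ± 0.86 in 3mo IOP against 2.63 ± 0.40 in 3mo contralateral and 3.75 ± 0.34 in 18mo IOP against 2.59 ± 0.45 in 18mo contralateral libraries (SD, n = 3 each), and 1.63 ± 0.16 and 1.57 ± 0.07 in untreated ones. Its values ran from 3.03 to 4.52 after IOP and from 2.19 to 3.09 in contralateral libraries, and they were not tested. Contralateral and IOP libraries were also set side by side by shortest peak, in arms of 1 or 2 libraries and so without a test. Among those of 148 to 157 bp the pileup per 10 M tags was 21.4 and 18.3 against 38.3 and 34.3 at 3 months and 23.7 against 47.4 and 29.7 at 18 months. Among those of 114 to 122 bp it was 24.6 against 25.1 at 3 months and 23.1 and 23.0 against 33.9 at 18 months. The other 4 Hmgb1 regions called in every library did not pass for IOP with pileup or with rank.

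**Figure D5:**
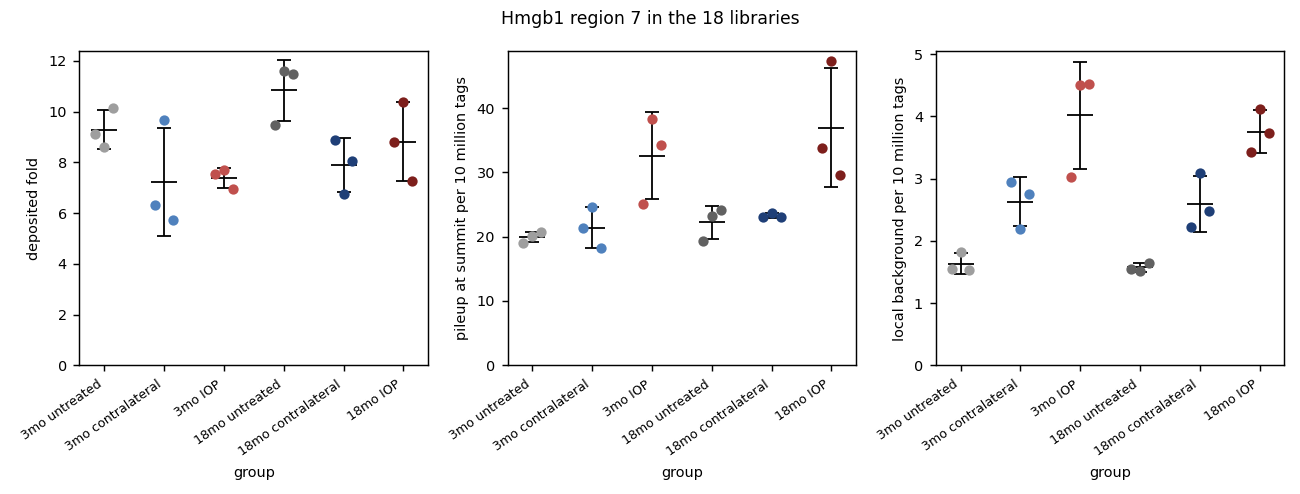
Deposited fold, pileup at the summit per 10 M estimated tags and local background per 10 M estimated tags at Hmgb1 region 7, by group; points are libraries, the black marks the mean and SD (n = 3). Fold overlaps between IOP and contralateral libraries, whereas the pileup is 25.1 to 47.4 after IOP and 18.3 to 24.6 in all controls.

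The wider pathways were read at the promoter (the 1 kb before a start and 100 bp after it). Of the 9 genes, 6 had a promoter called in all 18 libraries, Cdkn2a and Cdkn2b in 17 and Gdf15 in 0; of 21938 protein-coding genes 51.8% were called in all and 35.8% in none. Among 13 other cell-cycle inhibitors, cyclins and their partners 12 were called in all libraries and Ccnd1, the cyclin D1 gene, in 13. Among 15 p53 regulators and targets 14 were called in all and Pmaip1, which encodes the death protein Noxa, in 10. All 5 regulators of the Cdkn2a locus (Bmi1, Ezh2, Cbx7, Ets2 and Id1) were called in all 18. Of 13 promoters of secreted senescence factors, 0 were called in all libraries, 6 in some and 7 in none. Fgf2 was called in 17, Ccl2 in 4, Cxcl1 in 2, and Igfbp3, Mmp14 and Tnfrsf1b in 1, while Il6, Il1a, Il1b, Plaur, Igfbp5, Timp1 and Mmp3 were listed in 0.

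Across the windows of these 4 lists, 0 of 127 regions had p under 0.05 for age or for IOP over both ages. Over all regions, 0.428% passed as more often called at 18 months and 0.0517% at 3 months. For IOP, 0.122% passed as more often and 0.26% as less often called. These shares are small, so a 0 among 127 says little about the lists. At 18 months 3 of the 127 were called in 3 of 3 contralateral and 0 of 3 IOP libraries: chr6:134917193-134917434 by Cdkn1b, the p27 gene, chr15:79940930-79941317 in Cbx7 and chr6:47563054-47563298 in Ezh2. At 3 months the calls there were 3, 3 and 1 of 3 contralateral and 2, 2 and 0 of 3 IOP libraries. These losses were 2.36% of the 127 regions, beside 2.23% over all regions.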

How the data were processed

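ATAC-seq peak lists of 18 whole-retina libraries were used. The members and the gene lists were chosen with earlier results of these data known. Reads were aligned by the authors to mm10, and peaks were called per library; the submitters' processing notes name STAR 2.7.8a, MACS2, HOMER, edgeR and bedtools 2.29.2, and edgeR was not used here. Each deposited peak carries a score, a fold (ratio of summit pileup to local background), a −log10 p-value and a −log10 q-value, with q up to 0.05. Replicates were not pooled in the deposited lists.

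Peaks overlapping by at least 1 bp were merged, and regions called in at least 2 libraries were kept. Calls were compared by Fisher's exact test (age, 6 against 6 controls) and an exact conditional test stratified by age (IOP), peak numbers per gene by exact permutation, and height with limma 3.58.1 (R 4.3.3) on log2 of the deposited fold, centred on each library's median, with 1 mean per group and all 18 libraries in the fit. Where a library listed several peaks in a region, the peak with the highest −log10 q gave its fold. Adjustment was by Benjamini-Hochberg over all features of the series that could pass. All tests were two-sided. The pileup and local background were solved from fold and p-value, with 100% of pileups whole within 0.02, and tags were estimated from them. Pileup counts are not independent molecules, and read counts per region were not used here. Named regions were promoters, the highest-ranked region of each window, exclusive regions and those past a test; all others, among them Gdf15 regions 1 and 2, Lmnb1 region 4 and Hmgb1 regions 5, 7 and 11, were named after their values were seen. Sequences come from RefSeq promoters (12 starts of 8 members, all identical to the genome) and the GRCm38.p6 genome. Scripts ran in Python 3.11.15 with pandas 2.3.3, numpy 2.4.6, SciPy 1.17.1 and matplotlib 3.10.9, and the steps for calls, heights and pileups were tested on simulated data. Alternatives were other windows, thresholds, equal list lengths, other height measures, a replicate block and leaving out each library. From the list of secreted factors, 1 gene is not reported here, and the list's counts leave it out.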

Additional observations from a re-analysis of the deposited data

Results flagged for a closer look

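For 18 measures, the 6 controls of each age were searched for a library far from the rest, so 36 sets were examined, and chance gives such a library in about 1 set in 20. The search found 3, all in 18mo controls and all in the centred log2 fold. At the Lmnb1 promoter (region 1), 18mo contralateral replicate 1 was lowest at −0.491, with the other controls between −0.292 and −0.236. At Hmgb1 region 11, 18mo untreated replicate 6 was highest at 0.148, with the others between −0.290 and −0.149. At Hmgb1 region 1, the start shared with Mm2pr and Uspl1, 18mo contralateral replicate 2 was highest at 0.449, with the others between 0.0192 and 0.176. The cause was not tested.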

How the results depend on the processing

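Of 277 recomputed values, 260 stayed on their side of the threshold or, with no test, within the spread between libraries. The tally held 0 reversed calls, but differences in peaks over the 9 windows that changed sign (below) were not counted as reversed. With all libraries, 1 member region could reach p under 0.05 in the call test for age, and 1 in that for IOP. Counts that stayed at 0 in these call tests therefore say little about stability. Counts from the call tests here used p under 0.05 before adjustment, and height counts an adjusted p under 0.05. With each list shortened to its 36011 best peaks, 1 Gdf15 region (chr8:70630741-70630969) was gained after IOP at 3 months. In the stratified test 1 region had p under 0.05 (the same one, p = 0.02, adjusted 0.267, exact conditional test). In the test of peak number 1 gene did (Gdf15, p = 0.015 before adjustment, exact permutation test). The 18mo IOP difference in peaks over the 9 windows changed from −4.67 to 4.67 per library. Requiring a peak to cover at least 50% of a region gave 1 age call (Gdf15 region 1, p = 0.00217, adjusted 0.371, Fisher's exact test), and the same cover of a promoter left 2 genes called in all libraries in place of 6. Height called 1 region, Hmgb1 region 7, for IOP at 3 months by pileup and 1, the same region, at 18 months by pileup and by rank. With 1 library left out, age calls ranged from 0 to 1 (Lmnb1 region 4, without 3mo untreated replicate 6 or 3mo contralateral replicate 2). Regions gained after IOP at 3 months ranged from 0 to 2 (Lmnb1 region 4 and Gdf15 region 2, without 3mo contralateral replicate 2). Regions lost at 18 months ranged from 0 to 2, with 1 without contralateral replicate 2 (Hmgb1 region 9) and 2 without contralateral replicate 3 (Lmnb1 region 9 and Hmgb1 region 10). Leaving out a library makes the rule of all against none easier to meet for every region. No share over all regions is given for these settings or for the shortened lists. These counts therefore do not set the members apart from other regions. The window difference ranged from 1.53 to 5.33 for age (3 with all libraries), from −0.333 (without 3mo contralateral replicate 3) to 4.67 for IOP at 3 months (1.67), a change of sign, and from −5.67 to −3 for IOP at 18 months. It was −0.667 for age within untreated and 6.67 within contralateral controls, an alternative chosen after the data were seen. A replicate block on the shared numbers left the IOP calls, peak numbers and heights at 0 of the members; correlations of same-numbered libraries were −0.0748 to 0.108 for calls and −0.310 to 0.360 for heights, and not every library correlated best with its own number. The cause of these changes was not tested. Age calls within 1 kind of control could not reach p under 0.05.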
